A study of Mus musculus with 6 samples.

Results

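The translation factor genes described here are the mouse genes whose symbols begin with Eif1 to Eif6, Eef1 or Eef2. The pattern matched 80 symbols of 55487 genes in the deposited tables. The 4 Eif2ak kinases of eIF2 and 10 symbols that contain -ps were left out, which gave 66 members, and 65 of them are annotated as protein coding. The other, Eif2c5, carries an old name of the Argonaute family, is annotated as a long intergenic RNA, and had no count in any library. RNA-seq had been run on total RNA of CD8+ T cells, the killer lymphocytes, of C57BL/6 mice. In the itaconate group the cells were given 5 mM itaconate for 48 h, and in the control group they were given NaCl for the same 48 h. Itaconate is a small organic acid that macrophages release from a side branch of the citric acid cycle when they are activated. Each group held 3 libraries. The labels name no knockout, transgene or second treatment, and they give no age or sex and no account of how the cells were isolated or activated. Whether libraries of a group stem from different animals or cultures is also not stated, and p-values therefore reflect the spread among these 6 libraries, part of which may be technical.

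Total expected counts per library ran from 18280217 to 31643408. The summed markers of CD8 T cells, with Cd8a, Cd8b1 and the Cd3 genes among the 7, lay between 1700.2 and 1781 CPM in the controls and between 1894 and 1931 CPM with itaconate. CPM are counts scaled to library size with edgeR's TMM factors. Of the other cell types, the 5 B cell markers added up to 11.9 to 18.5 CPM among controls and 9.995 to 21.5 CPM under itaconate, and the 5 macrophage and monocyte markers to 1.40 to 2.0 and 2.33 to 3.56 CPM. Both CD4 T cell markers together reached 10.8 CPM at most, the 4 dendritic cell markers 2.96, the 3 neutrophil markers 2.75 and the 3 erythroid markers 3.995. Siglech and Ly6g were at 0 in all 6 libraries. The 3 NK cell markers summed to 96.4 to 108 and 110 to 138 CPM, almost all of it Eomes, which CD8 T cells also express. The CD8, macrophage and NK marker sums lay apart between the groups. Of the CD8 markers only Cd8a passed, with a log2 change of 0.38 (adjusted p 0.000296, edgeR). Cd8b1, Cd3e, Cd3d, Cd3g, Cd2 and Trac overlapped in CPM and did not pass. Eomes had an adjusted p of 0.0478 (edgeR). The part of these markers in the results below was not tested. In bulk RNA, a change in the share of cells and a change in RNA per cell cannot be told apart.

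Protein synthesis starts when eIF2, carrying the initiator tRNA and GTP, joins the small ribosomal subunit with eIF1, eIF1A, eIF3 and eIF5, while eIF4F, made of the cap-binding eIF4E, the scaffold eIF4G and the helicase eIF4A, brings in the mRNA. The elongation factor eEF1A then delivers each aminoacyl-tRNA, the eEF1B subunits recharge eEF1A with GTP, and eEF2 moves the ribosome along the mRNA. T cells raise translation strongly when they are activated, largely through mTORC1, which phosphorylates the 4E-BP inhibitors of eIF4E, and many mRNAs of this machinery carry a pyrimidine tract at the cap that couples their translation to mTORC1.

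Stretches of promoter are shown for 6 members. Those of Eif4e, Eif4g1, Eif4a1 and Eif5a were cut around an E-box that they hold. The 6 therefore do not show how common this motif is. Of them only Eef1a1 passed the test described below, and Eif3j2, which also passed, is not among them. They come from the RefSeq promoter table of build GRCm38.p6, whose windows run from 250 bases before to 50 after a start site, and 47 of the 60 members that could be tested had a window. Capitals mark the E-box CACGTG, to which Myc and related factors can bind, and in Eef2 also a TATA box, TATAAA. These motifs were chosen after the expression values were seen. All stretches read 5′ to 3′ on the strand of the gene. The stretches of the cap-binding complex and of eIF5A lie at chr3:138527184-138527229 (plus strand, Eif4e), chr16:20672653-20672698 (plus, Eif4g1), chr11:69672587-69672632 (minus, Eif4a1) and chr11:69921435-69921480 (minus, Eif5a). The last 120 bases before a start site are given for the elongation factors, at chr10:81176511-81176630 (plus, Eef2) and chr9:78481725-78481844 (minus, Eef1a1).
Eif4e: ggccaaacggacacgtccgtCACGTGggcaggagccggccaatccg
Eif4g1: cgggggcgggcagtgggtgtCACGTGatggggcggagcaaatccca
Eif4a1: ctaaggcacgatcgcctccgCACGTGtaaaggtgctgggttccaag
Eif5a: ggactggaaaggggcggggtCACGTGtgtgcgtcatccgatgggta
Eef2: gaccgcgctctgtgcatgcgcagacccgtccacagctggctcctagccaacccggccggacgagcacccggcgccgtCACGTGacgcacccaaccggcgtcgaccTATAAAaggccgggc
Eef1a1: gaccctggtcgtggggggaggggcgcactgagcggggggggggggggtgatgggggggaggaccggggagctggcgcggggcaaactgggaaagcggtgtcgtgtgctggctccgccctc

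The E-box began 64 bases before the start site in Eif4e, which held another 228 bases before it, 54 in Eif4g1, 189 in Eif4a1, 74 from the nearest start site of Eif5a and 43 in Eef2. The TATA box of Eef2 began 15 bases before the start. At least 1 E-box, searched on both strands, was present in windows of 14 of the 47 members (29.8%), against 12.1% of the 9145 tested genes that had a window and 7.15% of all 32851 windows. The 14 were Eef1akmt4, Eef1aknmt, Eef2, Eef2k, Eif1b, Eif3a, Eif3f, Eif3k, Eif4a1, Eif4e, Eif4g1, Eif4h, Eif5a and Eif5a2. TATAAA was found in 4 members (8.51%), namely Eef2, Eif2s1, Eif3b and Eif3f, against 8.06% of tested genes and 13.6% of windows. An element bound by ATF4, searched as TGATGNAAN, was found in Eef2k and Eif2s3x, which is 4.26% of members against 2.68% of tested genes and 3.95% of windows. The Eef1a1 stretch shown holds none of the 3. A match is a run of letters only, and binding was not measured.

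The members' mRNAs spanned a wide range of levels, with the elongation factors, eIF5A and the helicase at the top. Levels are compared between genes in TPM, the deposited measure that takes gene length into account. Eef1a1 had the highest mean level of all genes, 10907 TPM over the 6 libraries. The factor eIF5A, which helps the ribosome past difficult peptide bonds, came from Eif5a at 3066 TPM (rank 67 of all genes), and Eef2 stood at 2682 TPM (rank 80). The eEF1B subunit genes Eef1b2 and Eef1g followed at 1809.8 and 1747 TPM, Eif4a1 at 1624 TPM and Eif1 at 837 TPM. At the other end of the tested members, Eif5a2, the second gene for eIF5A, stood at 4.08 TPM. The median of all 66 members was 163 TPM.

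Within eIF2, eIF2B and the eIF3 core the subunit genes stood close to each other. The tested genes of the 3 eIF2 subunits lay between 231 and 288 TPM, a span of 1.25-fold. The 12 genes of eIF3 other than Eif3j1 and Eif3j2 lay between 209 and 495 TPM with a median of 334, a span of 2.38-fold. All 5 subunits of eIF2B, the exchange factor that recharges eIF2 with GTP, lay lower, between 52.2 and 108 TPM, and Eif2s1 was 2.90 times as high in TPM as Eif2b5. In eIF4F the helicase was in excess at the mRNA level, since mean Eif4a1 TPM was 5.43 times that of Eif4g1 and 7.65 times that of Eif4e. Eef1a1 TPM was 4.07 times that of Eef2 and 6.03 times that of Eef1b2.

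**Figure D1:**
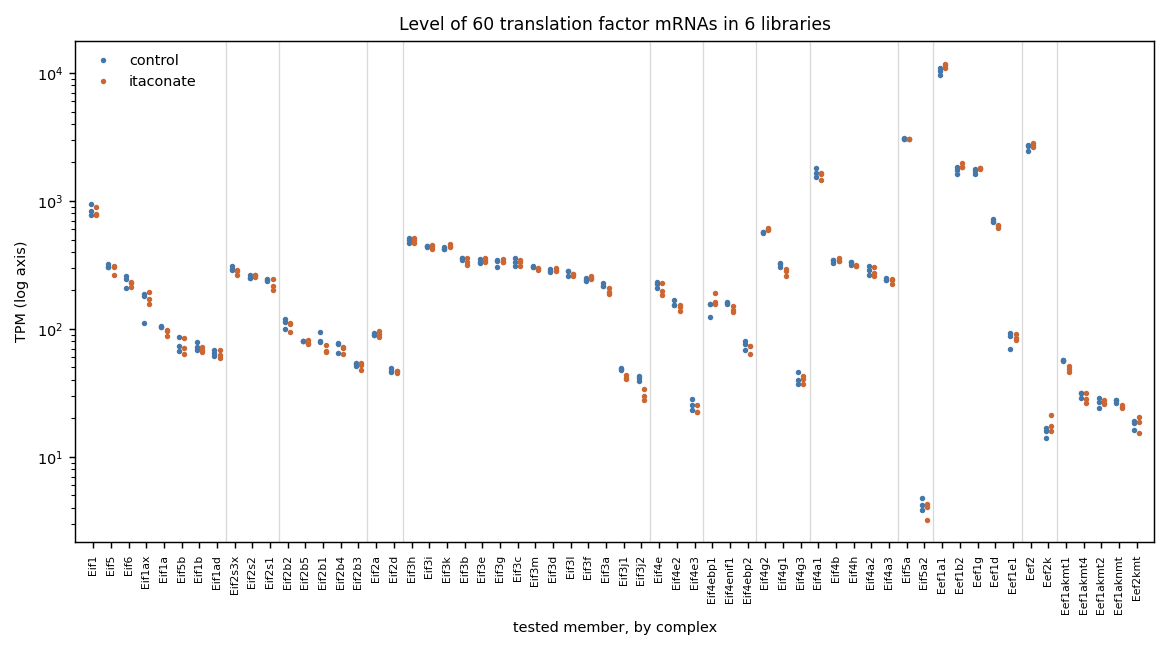
Level of the 60 tested members in TPM (log axis), 1 point per library, control in blue and itaconate in orange, ordered by complex with grey lines between complexes. Eef1a1 stands at the top near 10907 TPM and Eif5a2 at the bottom near 4.08 TPM, and the points of both groups lie close together for most members.

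Itaconate was then set against control for each member. Of 60 members with enough counts for the test, 1 was higher, Eef1a1, and 1 was lower, Eif3j2, at an adjusted p under 0.05 (edgeR's quasi-likelihood test, Benjamini-Hochberg over 12350 genes). Among all tested genes 6.68% passed as higher and 5.37% as lower, so the share of members that passed was below the background in both directions. The median log2 fold change was 0.02 over the 60 members and 0.01 over all tested genes. Members ranged from -0.36 to 0.29, with 37 above 0 and 23 below. An unadjusted p under 0.05 was reached by 17 members (28.3%), against 26.5% of all tested genes. Groups were fully apart in CPM for 19 members (31.7% of 60, against 31.2% of all tested genes), with itaconate above in 12 (16.8% of all tested genes) and below in 7 (14.4%). In TPM, itaconate lay fully above in 4 members (8.83% of all tested genes) and fully below in 14 (17.6%). Those above were Eef1g, Eif3k, Eif4ebp1 and Eif4g2. Those below were Eef1akmt1, Eef1aknmt, Eef1d, Eif1a, Eif2b1, Eif2s3x, Eif3a, Eif3j1, Eif3j2, Eif3m, Eif4e2, Eif4enif1, Eif4g1 and Eif4h. For single genes, overlap in the text below is of CPM unless TPM is named.

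The small values were measured with a narrow error. In 56 of the 60 members (93.3%) the unadjusted 95% interval of the change lay inside 1.25-fold in either direction, against 45.6% of all tested genes. Since precision grows with depth, the 732 tested genes at or above the members' median of 250.2 CPM were also taken. Of those, 79.6% lay inside while 17.1% passed the test. Only 30 of the 60 members reach that level, so the 93.3% and the 79.6% cover unlike ranges of depth. The 4 members whose interval reached past 1.25-fold were Eif3j2, Eif4ebp1, Eef1akmt1 and Eef2kmt. The median coefficient of variation of member CPM within a group was 3.66% in control and 3.52% in itaconate libraries. Among members that did not pass, the smallest adjusted p was that of Eef2, 0.05999 (edgeR).

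**Figure D2:**
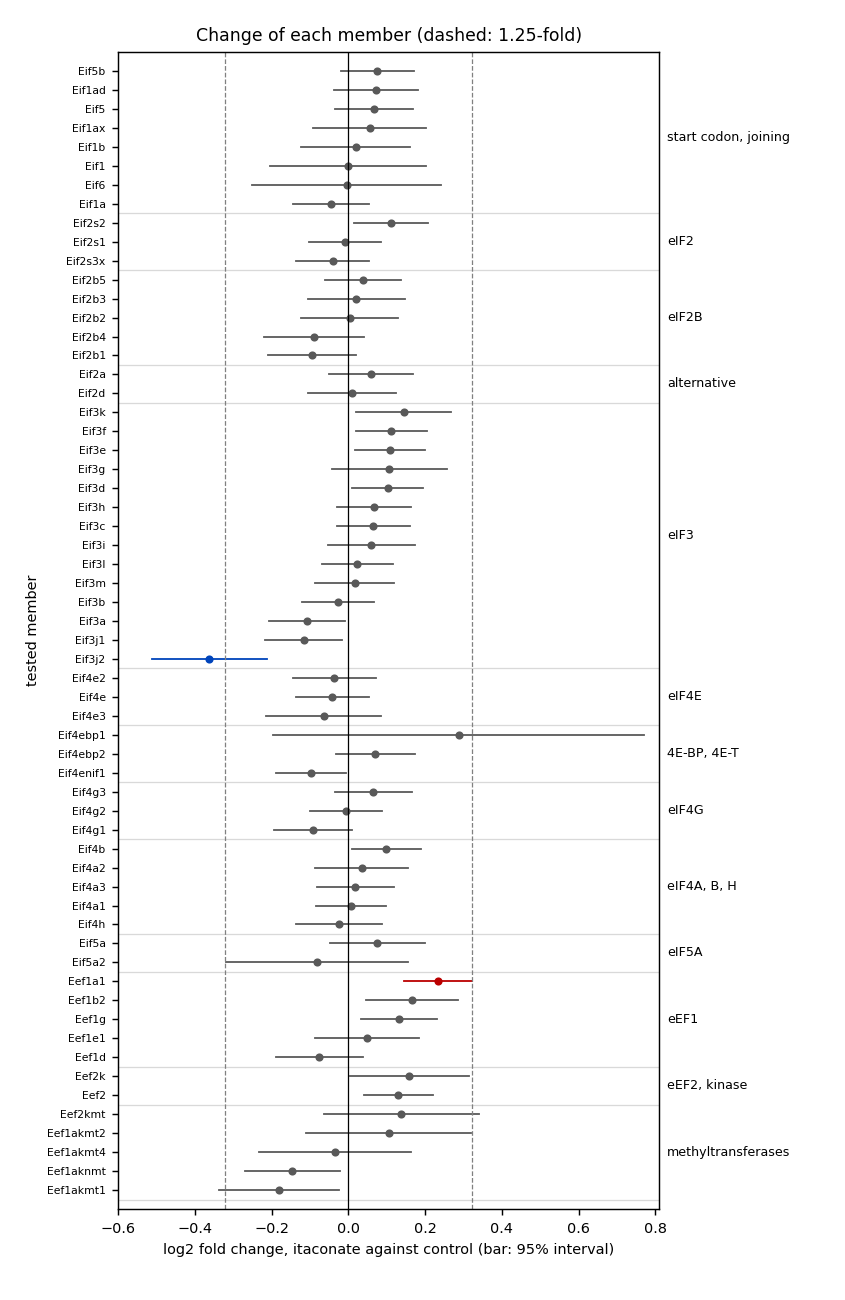
Fitted log2 fold change of itaconate against control for the 60 tested members by complex, with 95% intervals as bars and dashed lines at 1.25-fold. Eef1a1 (red, 0.23) and Eif3j2 (blue, -0.36) passed the test, and Eif4ebp1 has the widest bar.

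Of the elongation factors, Eef1a1 passed the test, and Eef2, Eef1b2, Eef1g and Eef2k lay on the same side of control in every setting tried. Eef1a1, the gene of the main eEF1A protein, lies at chr9:78478449-78489151 on the minus strand (GRCm38). It stood at 12087, 11723 and 11748 CPM in control replicates 1, 2 and 3, and at 13683, 14030.2 and 14063 CPM in itaconate replicates 1, 2 and 3; values below keep this order. Each itaconate library was above each control. Eef1a1 rose by 0.23 ± 0.041 on the log2 scale (SE), which is 1.17-fold (95% interval 1.10 to 1.25), with an adjusted p of 0.00242 (edgeR).

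On the TPM scale the groups overlapped. Eef1a1 was listed at 11036, 10439 and 9561 TPM in the controls and 11856, 10956 and 11594 TPM with itaconate, and itaconate replicate 2 was below control replicate 1. limma on log2(TPM + 1) gave 0.15 ± 0.059 with an adjusted p of 0.205, where the median over all tested genes was -0.05. With effective-length offsets on counts the call was kept (0.21 ± 0.048, adjusted p 0.0381, edgeR). The call was thus lost with limma on TPM and not in counts. In counts Eef1a1 also kept it with each library left out in turn (adjusted p 0.00547 to 0.0352, edgeR). Of the distinct 50-base words in its transcripts, 39.4% also occur in 20 other genes, and these together held 26.3 CPM in control and 26.9 CPM in itaconate libraries on average. Eef1a1 itself went from 11853 ± 203 to 13926 ± 211 CPM (SD, n = 3). All these values depend on how shared reads were divided among the genes, and the part of that division was not tested.

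Eef2, the translocase, followed in the same direction without passing. Its levels were 6019, 5958 and 5728 CPM in control and 6445, 6391 and 6541 CPM in itaconate libraries, and the groups did not overlap. The change was 0.13 ± 0.042 (log2, SE) with an adjusted p of 0.05999 (edgeR). It was 0.04 once the length and GC trend was removed and 0.07 with limma on log2(TPM + 1), and its TPM overlapped between the groups. Eef1b2, whose product exchanges GDP for GTP on eEF1A, stood at 949, 1001 and 1081 against 1077, 1199 and 1124 CPM, where control replicate 3 and itaconate replicate 1 overlapped (0.17 ± 0.056, adjusted p 0.0692, edgeR). Eef1g, the structural subunit of eEF1B, stood at 1706, 1768 and 1834 against 1879, 1995 and 1941 CPM with no overlap (0.13 ± 0.046, adjusted p 0.0771, edgeR). Some settings put these 3 genes past the threshold, as the section on processing gives. Eef1b2 overlaps Ndufs1 on the other strand, and the strand setting is not known here. Of its 50-base words 8.28% also occur in 4 other genes, which together held 101 CPM in control and 92.5 in itaconate libraries. Eef1g shares 44.2% of its 50-base words with 5 other genes, which together held 14.4 CPM in control and 13.9 in itaconate libraries.

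Neither of the other tested eEF1 genes passed, and their difference from Eef1a1 was not tested. Eef1d, the other exchange subunit, stood at 362, 377 and 413 CPM in control and 354, 376 and 364 CPM in itaconate libraries, with overlap and a log2 change of -0.08. In TPM it lay below control without overlap, at 688, 696 and 722 against 646, 641 and 620. Eef1e1, a scaffold of the tRNA synthetase complex that carries an eEF1 name, had a log2 change of 0.05 (95% interval -0.09 to 0.18). Eef2k, the kinase that inactivates eEF2, stood at 30.2, 33.7 and 33.1 against 34.0, 36.5 and 37.7 CPM. Its groups lay just apart, and its change of 0.16 ± 0.072 did not pass (adjusted p 0.176, edgeR).

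**Figure D3:**
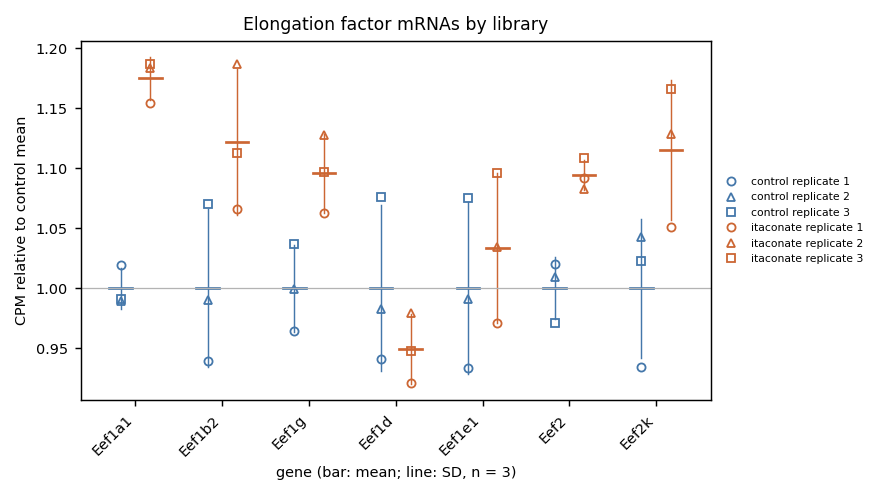
CPM of 7 elongation factor genes relative to the control mean in 6 libraries (symbols mark replicates, horizontal bars the mean, lines the SD, n = 3); the vertical axis does not start at 0. Eef1a1, Eef1g, Eef2 and Eef2k have all itaconate libraries above all controls, whereas Eef1d lies around or below 1.

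The members' share of all counts was higher with itaconate, and most of the gain was in Eef1a1. All members together took 4.18%, 4.15% and 4.15% of all counts in control replicates and 4.39%, 4.40% and 4.44% in itaconate replicates. Eef1a1 alone took 1.23%, 1.19% and 1.17% against 1.37%, 1.38% and 1.39%. Without Eef1a1 the other members took 2.95%, 2.97% and 2.98% against 3.02%, 3.02% and 3.05%, still without overlap. Without both Eef1a1 and Eef2 they took 2.34%, 2.37% and 2.41% against 2.38%, 2.39% and 2.41%, and the groups overlapped. In TPM the members' sum overlapped as well, with 31403 to 33157 among controls and 32619 to 34176 under itaconate.

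The 5 tested methyltransferases that modify lysines or the end of eEF1A, or a lysine of eEF2, had a median log2 change of -0.03 and none passed. The most abundant in TPM, Eef1akmt1, stood at 27.8, 28.8 and 30.8 CPM in control and 25.5, 25.6 and 26.1 CPM in itaconate libraries, without overlap (-0.18 ± 0.073, adjusted p 0.128, edgeR). Eef1aknmt likewise lay below in all 3 itaconate libraries (-0.15). Eef1akmt2, Eef1akmt4 and Eef2kmt had changes of 0.10, -0.03 and 0.14, with overlap.

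Among the 48 tested initiation factors and their regulators, 0 were higher and 1 was lower (edgeR), against 6.68% and 5.37% of all tested genes. Their median log2 change was 0.02, and 10 (20.8%) had an unadjusted p under 0.05, against 26.5% of all tested genes. DESeq2, with the same threshold, called no other member than Eef1a1 and Eif3j2.

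In eIF3, the large scaffold that holds the small subunit open for the mRNA, most core subunits sat slightly above control in CPM, though not in TPM, and both eIF3j genes sat below. Eif3j2 was the only subunit gene that passed the test as lower. It lies at chr18:43475418-43477796 on the minus strand and has 1 transcript with 1 exon. Its levels were 69.4, 72.9 and 69.5 CPM in control and 51.6, 51.6 and 61.3 CPM in itaconate libraries, so every itaconate library was lower than every control. The log2 change was -0.36 ± 0.070 with an adjusted p of 0.00430 (edgeR). On the TPM scale the levels were 41.5, 43.1 and 39.3 against 29.8, 28.1 and 34.0, again without overlap. After a trend on length and GC content over all tested genes was removed, the change was -0.27.

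Eif3j2 and Eif3j1 both encode the loosely bound subunit j, which acts near the mRNA entry channel, and their transcripts are nearly alike. Of the 50-base words of Eif3j2, 90.8% also occur in Eif3j1, and 36.6% of those of Eif3j1 occur in Eif3j2, so the division of reads between them is uncertain. Eif3j1, an 8-exon gene at chr2:122028546-122056598 on the plus strand, stood at 187, 189.8 and 201 CPM in control and 175, 182 and 176 CPM in itaconate libraries. It too was lower in all 3, but did not pass (-0.12 ± 0.047, adjusted p 0.126, edgeR). The sum of both, which does not depend on the division between them, was 256, 263 and 271 CPM in control and 226, 234 and 237 CPM in itaconate libraries. Eif3j1 overlaps Spg11 on the other strand, the strand setting is not known here, and the part of this in the sum was not tested. Counted as 1 gene, an analysis chosen after seeing the data, the pair fell by 0.18 ± 0.045 on the log2 scale (adjusted p 0.0178, edgeR), from 263 ± 7.26 to 232 ± 5.503 CPM (SD, n = 3). The ratio of Eif3j2 to Eif3j1 in TPM was 0.873, 0.887 and 0.789 in control and 0.686, 0.680 and 0.834 in itaconate libraries, and it overlapped.

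The 12 other eIF3 genes had a median log2 change of 0.07 with 10 above 0 from counts, but -0.01 with 5 above 0 from limma on log2(TPM + 1). Over all tested genes the median was 0.01 from counts and -0.05 from that limma fit, so the 2 scales differ in their zero. None passed the test in counts (edgeR), and 5 had an unadjusted p under 0.05 (26.5% of all tested genes). All 12 had their 95% interval inside 1.25-fold. CPM lay above control without overlap in 5, namely Eif3c, Eif3d, Eif3e, Eif3f and Eif3h (16.8% of all tested genes). Eif3h, the most abundant by TPM, stood at 413, 411 and 409 against 419, 423 and 449 CPM (0.07, adjusted p 0.384, edgeR). Eif3e, a subunit at the edge of the complex, stood at 346, 332 and 342 against 369, 365 and 364 CPM (0.11, adjusted p 0.1198, edgeR). With the length and GC trend removed, the change was 0.20 in Eif3e and 0.02 in Eif3h. The nearest libraries of the groups were 413 and 419 CPM in Eif3h, a gap smaller than the spread among its itaconate libraries.

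Eif3a, the largest subunit and the backbone of the complex, lay on the other side in counts, and its change was 0.00 once the length and GC trend was removed. It stood at 869, 833 and 834 CPM in control and 813, 754 and 786 CPM in itaconate libraries, without overlap (-0.11 ± 0.046, adjusted p 0.152, edgeR). Eif3c, its partner in the core, stood at 772, 761 and 740.0 against 812, 774 and 793 CPM (0.07, adjusted p 0.380, edgeR), with control replicate 1 and itaconate replicate 2 nearly equal. The remaining genes, Eif3b, Eif3g, Eif3i, Eif3k, Eif3l and Eif3m, overlapped between the groups, with log2 changes from -0.03 (Eif3b) to 0.14 (Eif3k).

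**Figure D4:**
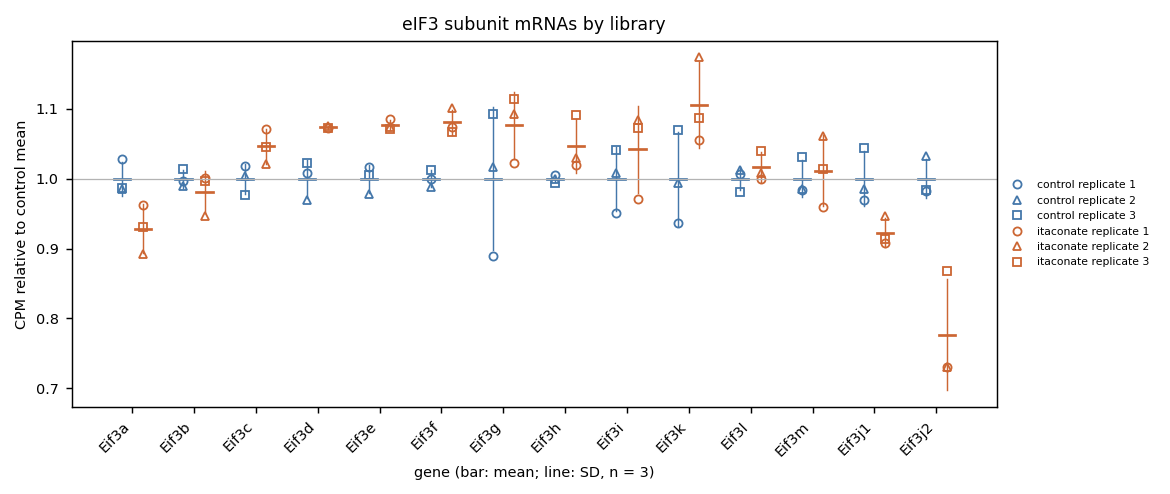
CPM of 14 eIF3 genes relative to the control mean in 6 libraries (symbols mark replicates, horizontal bars the mean, lines the SD, n = 3); the vertical axis does not start at 0. Eif3j2 lies lowest, Eif3j1 and Eif3a also have every itaconate library below every control, and Eif3c, Eif3d, Eif3e, Eif3f and Eif3h have them above.

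The factors that bring the initiator tRNA showed no member past the threshold. Eif2s1, the alpha subunit whose phosphorylation shuts down initiation, stood at 316, 309 and 322 CPM in control and 313, 308 and 322 CPM in itaconate libraries. The groups overlapped nearly completely, and the 95% interval of the log2 change ran from -0.10 to 0.09. Eif2s3x, the X-linked gamma subunit that binds GTP and the tRNA, stood at 812, 787 and 812 against 779, 760.1 and 805 CPM (-0.04). Eif2s2, the beta subunit, was above control in all 3 itaconate libraries without passing (0.11 ± 0.045, adjusted p 0.131, edgeR).

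Eif2s3y, the Y-linked gamma gene, had 0, 1 and 0 counts in the controls and 0, 0 and 3 in the itaconate libraries. It could not be tested, and nearly all gamma subunit mRNA was from Eif2s3x. Ddx3y, Kdm5d and Uty, also on the Y chromosome, had 2 counts or fewer in any library, while Xist ran from 5137 to 12249 counts.

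In eIF2B all 5 subunits overlapped in CPM, with log2 changes from -0.10 (Eif2b1) to 0.04 (Eif2b5) and a median of 0.00. In TPM, Eif2b1 lay below control without overlap, at 94.4, 78.6 and 80.1 against 75.2, 66.0 and 67.6. Eif2b2, the most abundant by TPM, stood at 65.2, 69.1 and 71.9 against 66.3, 69.0 and 71.4 CPM. Eif2b5, the catalytic epsilon subunit, stood at 145, 144 and 152 against 151, 150.2 and 150.0 CPM. Eif2b3 and Eif2b4 had changes of 0.02 and -0.09. The alternative initiator tRNA factors Eif2a and Eif2d changed by 0.06 and 0.01, Eif2a from 150.4, 148 and 149 to 152, 166 and 148 CPM, with overlap.

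The 8 factors of start codon selection and subunit joining had log2 changes between -0.04 and 0.08, and none passed. Eif1, which keeps scanning strict, stood at 448, 517 and 565 CPM in control and 477, 555 and 495 CPM in itaconate libraries. Eif1ax, the X-linked eIF1A gene, stood at 193, 206 and 237 against 213, 219 and 229 CPM. Eif5, the GTPase-activating factor of eIF2, stood at 525, 496 and 526 against 543, 518 and 558 CPM. In all 3 the groups overlapped.

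Eif6, which keeps large subunits from joining too early, stood at 204, 238 and 269 CPM in control and 218, 250.05 and 242 CPM in itaconate libraries. The log2 change was -0.00, with a 95% interval from -0.25 to 0.24, the widest of the 8. Eif5b, the GTPase of subunit joining, was above control in all 3 itaconate libraries (0.08, adjusted p 0.311, edgeR). Eif1a, Eif1b and Eif1ad overlapped.

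In the cap-binding complex, no member passed. Eif4e, the cap-binding protein, stood at 227, 221 and 233 CPM in control and 224, 216 and 221 CPM in itaconate libraries, and its log2 change was -0.04 with a 95% interval from -0.14 to 0.05. Its paralogs Eif4e2 and Eif4e3 overlapped as well (-0.04 and -0.06). Eif4g1, the scaffold, stood at 1105, 1074 and 1072 against 1055, 959 and 1034 CPM, lower in all 3 without passing (-0.09, adjusted p 0.233, edgeR). Eif4g2, the cap-independent scaffold DAP5, stood at 1437, 1395 and 1405 against 1395, 1365 and 1459 CPM with overlap. The ratio of Eif4g2 to Eif4g1 in TPM was 1.74, 1.75 and 1.86 in control and 2.09, 2.34 and 2.07 in itaconate libraries. The TPM ratios lay apart, and the ratio of CPM was 1.30, 1.30 and 1.31 against 1.32, 1.42 and 1.41, a smaller gap. Eif4g3 had a change of 0.07.

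The helicase genes stayed close to control. Eif4a1, the main helicase, stood at 1859, 1823 and 1883 CPM in control and 1853, 1831 and 1905 CPM in itaconate libraries, and its 95% interval on the log2 scale ran from -0.09 to 0.10. Its transcripts share 28.4% of 50-base words with other genes, among them the pseudogene Eif4a-ps4, which stood at 12.8 CPM in control and 11.2 in itaconate libraries. The paralog Eif4a2 stood at 351, 313 and 350.1 against 359, 357 and 324 CPM, and its TPM ratio to Eif4a1 was 0.172, 0.160 and 0.188 against 0.184, 0.187 and 0.159. Eif4b, which stimulates the helicase, was above control in all 3 itaconate libraries, at 960.3, 974 and 961 against 1039.6, 1035 and 1025 CPM. Its change of 0.10 ± 0.042 did not pass (adjusted p 0.145, edgeR). Eif4a3, a core of the exon junction complex, and Eif4h overlapped (0.02 and -0.03).

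Eif4ebp1, the 4E-BP1 inhibitor of eIF4E, had the largest fitted increase of all members and the widest error. It stood at 92.6, 139.6 and 131 CPM in control and 134, 164 and 144 CPM in itaconate libraries. Control replicate 1 lay far below the rest, and the groups overlapped in CPM. In TPM they lay just apart, at 123.67, 157.23 and 157.00 in control against 157.73, 190.25 and 162.25 in itaconate libraries. The log2 change of 0.29 ± 0.185 did not pass (adjusted p 0.412, edgeR), and its 95% interval ran from -0.20 to 0.77. Without control replicate 1 the change was 0.13 ± 0.076 (adjusted p 0.370, edgeR). The TPM ratio of Eif4ebp1 to Eif4e was 0.532, 0.706 and 0.747 in control and 0.696, 1.04 and 0.820 in itaconate libraries, with overlap.

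Eif4ebp2, the paralog, stood at 261, 257 and 243 against 267, 255 and 277 CPM (0.07, adjusted p 0.391, edgeR), and its TPM ratio to Eif4e ran from 0.325 to 0.349 among controls and from 0.326 to 0.372 under itaconate. Eif4enif1, which carries eIF4E into the nucleus, was below control in all 3 itaconate libraries, at 319, 328 and 321 against 304, 301 and 299 CPM (-0.10 ± 0.042, adjusted p 0.153, edgeR). Eif5a stood at 2301, 2535 and 2679 against 2492, 2737 and 2687 CPM, with overlap (0.08, adjusted p 0.450, edgeR). Eif5a2 overlapped too (-0.08).

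The controls differed among themselves in the members. Control replicate 1 was the lowest of the 3 in 28 of 60 members (46.7%, against 37.1% of all tested genes), control replicate 2 in 23 (38.3%, against 28.3%) and control replicate 3 in 9 (15%, against 34.6%). In control replicate 1, log2 CPM minus the mean of the other controls was -0.54 in Eif4ebp1, -0.31 in Eif6, -0.27 in Eif1 and -0.24 in Eif3g. Across the 60 members, which share the libraries, this deviation had a Pearson correlation of 0.50 with the logarithm of gene length and -0.38 with GC content (Spearman 0.57 and -0.35). Over all tested genes the values were 0.26 and -0.09 (Spearman 0.34 and -0.12). The library's median difference between gene length and effective length was 258.64 bases, against 229.21 to 239.06 in the others, and its mitochondrial share of counts was 1.94%, against 1.25% to 1.55%. The part of these differences in the members' values was not tested. The calls of Eef1a1 and Eif3j2 were kept without it (log2 changes 0.25 and -0.38, adjusted p 0.00547 and 0.00587, edgeR).

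**Figure D5:**
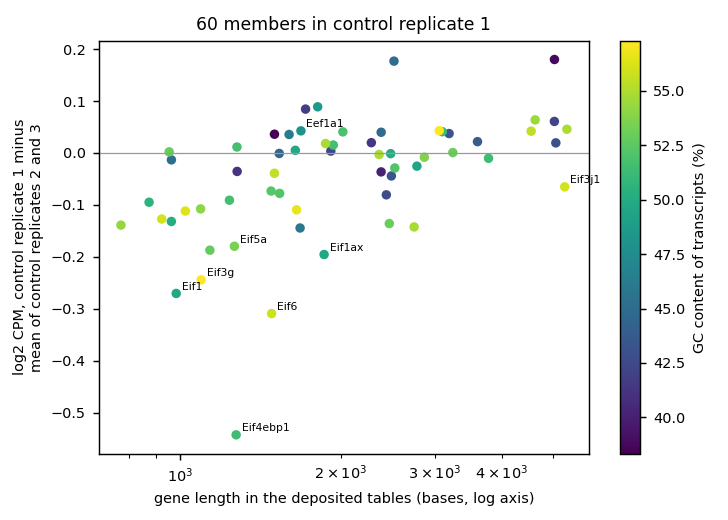
Log2 CPM of control replicate 1 minus the mean of control replicates 2 and 3 for the 60 tested members, against gene length in bases (log axis), coloured by the GC content of transcripts in percent. Short members lie below 0 more often, Eif4ebp1 is lowest at -0.54, and Eef1a1 lies near 0.

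The 6 members that could not be tested were at or near 0. Eif4e1b, the eIF4E paralog known from oocytes, and Eif2c5 had 0 counts in all 6 libraries, and a count of 0 allows up to 3 counts, which is 0.0948 to 0.164 CPM per library (counting error only). Eif4ebp3 had 0, 3 and 10 counts in control and 0 in each itaconate library. Eef1a2, the eEF1A gene of muscle and neurons, had 0, 2 and 8 against 7, 0 and 0 counts, so nearly all eEF1A mRNA was from Eef1a1. Eef1akmt3 had 2 to 11 counts in every library.

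Regulators outside the family were taken from 6 lists of related genes. Of the 11 tested regulators of eIF2 phosphorylation, 0 were higher and 4 were lower, against 6.68% and 5.37% of all tested genes, with a list median of -0.02 (all tested genes 0.01). Ppp1r15a, the stress-induced subunit of the eIF2 alpha phosphatase, stood at 32.2, 38.0 and 38.5 CPM in control and 24.8, 27.8 and 24.1 CPM in itaconate libraries. The groups did not overlap (-0.51 ± 0.086, adjusted p 0.00188, edgeR), and the call was kept with each library left out. The eIF2 kinases Eif2ak2 (PKR, -0.25, adjusted p 0.0299, edgeR) and Eif2ak3 (PERK, -0.30, adjusted p 0.0292) also fell, as did Dnajc3, an inhibitor of both (-0.23, adjusted p 0.0172). Eif2ak1 and Eif2ak4 did not pass. The calls of Eif2ak2, Eif2ak3 and Dnajc3 were lost in several of the fits with 1 library fewer, at log2 changes of similar size. Eif2ak2 lost its call without control replicate 1, control replicate 2, itaconate replicate 2 or itaconate replicate 3 (log2 changes -0.25 to -0.22, adjusted p 0.0698 to 0.121, edgeR). Eif2ak3 lost it without control replicate 2, control replicate 3, itaconate replicate 1 or itaconate replicate 2 (-0.31 to -0.24, adjusted p 0.0608 to 0.102). Dnajc3 lost it without control replicate 1, control replicate 2 or itaconate replicate 2 (-0.25 to -0.19, adjusted p 0.0536 to 0.0838), and its change was -0.13 with the length and GC trend removed.

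Of 18 genes of mTORC1 and S6 kinase signalling, 2 were higher and 0 lower (6.68% and 5.37% of all tested genes), with a median of 0.01. Pdcd4, which binds eIF4A and blocks its helicase activity, stood at 77.2, 79.3 and 78.1 CPM in control and 95.9, 107 and 111 CPM in itaconate libraries. Every itaconate library was higher than every control (0.42 ± 0.060, adjusted p 0.000516, edgeR), and the call was kept with each library left out. Rps6, the ribosomal substrate of S6 kinase, rose from 1936 ± 187 to 2312 ± 115 CPM (SD, n = 3; 0.26, adjusted p 0.0266, edgeR). Its call was lost without control replicate 1, control replicate 2, or itaconate replicate 1, 2 or 3 (0.18 to 0.28, adjusted p 0.0512 to 0.109, edgeR). Deptor and Tsc1 had the outermost fitted values of the list, 0.71 and -0.31, and did not pass.

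Among 6 poly(A)-binding proteins and partners, Paip2 (-0.24, adjusted p 0.0119, edgeR) and Paip2b (-0.22, adjusted p 0.0305), both inhibitors of PABP, fell, and 0 rose (5.37% and 6.68% of all tested genes). Pabpc1 did not pass, and the list median was 0.03. Paip2 lost its call without control replicate 2 or itaconate replicate 3 (-0.23 to -0.22, adjusted p 0.0516 to 0.0619, edgeR). Paip2b lost it without control replicate 2 or itaconate replicate 1, 2 or 3 (-0.25 to -0.18, adjusted p 0.0501 to 0.145). No gene passed among 7 tested for termination and ribosome recycling (median -0.03) or 10 mitochondrial translation factors (median -0.06). Nor did any of 9 for hypusine and diphthamide synthesis, which modify eIF5A and eEF2 (median 0.08). By unadjusted p under 0.05 (edgeR) the counts were 1, 0 and 0 in that order, against 26.5% of all tested genes. Among all tested genes 6.68% passed as higher and 5.37% as lower.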

How the data were processed

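The authors deposited 1 gene table per library with RSEM's column names. Per the file headers, expected counts are the authors' estimates of reads per gene, and TPM are the authors' values scaled for effective length. Gene lengths and effective lengths are the deposited values too. The submitters' processing notes name Bowtie 0.12.2, mm8 and mm10. RSEM's version, the authors' annotation, strand setting and trimming were not given in the sources used here. Between 5.99% and 6.93% of genes per library had an expected count more than 0.001 from a whole number, and counts were rounded. CPM used TMM factors (0.9865 to 1.017).

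The 3 itaconate libraries were set against the 3 controls in edgeR 4.0.16 under R 4.3.3 (quasi-likelihood, robust, two-sided, minimum count 10, minimum total 15, 12350 genes). The call threshold was 0.05 for the p adjusted by Benjamini-Hochberg across them. Intervals are 95%, unadjusted. Libraries of a group differed by more than sampling noise. Alternatives used DESeq2 1.42.0, limma 3.58.1 on TPM with pseudocounts 1 and 0.1, other scalings and filters, effective lengths, a loess trend (span 0.3) and left-out libraries. Positions are from GENCODE M21 (GRCm38), where all 66 members were found.

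Named with values by library were members past the threshold, the member of each complex with the highest TPM, and 24 fixed members. Members of the pathway lists past the threshold were named as well. Eif2s2, Eif4enif1, Deptor, Tsc1, Pabpc1 and the Y-linked genes were chosen after their values were seen. The members, complexes, lists and alternatives were chosen with earlier results of these data known. Of 12 listed eIF2 regulators 11 were found by symbol.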

Additional observations from a re-analysis of the deposited data

How the results depend on the processing

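The fall of Eif3j2 kept its call in every test run, and the rise of Eef1a1 in every count-based one. The number of higher members, 1, became 4 with upper-quartile factors (Eef1a1, Eef1b2, Eef1g and Eef2), 3 with no low-count filter (Eef1a1, Eef1b2 and Eef2), and 0 with limma on log2(TPM + 1) or log2(TPM + 0.1). Of all genes, 1488 were called, against 340 and 356 with these limma fits and 567 with effective-length offsets. Higher calls made up 55.4% of all calls, against 46.4% with library totals only, 39.1% and 39.6% with limma. With 1 library left out, calls over all genes ran from 726 (without control replicate 2) to 1400 (without control replicate 3), with 835 without itaconate replicate 3 and 899 without itaconate replicate 2. Higher members then numbered 1 to 2, the added one being Eef1b2 without control replicate 3, and lower members 1.

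With the replicate number as a block, 6 members were higher (Eef1a1, Eef1b2, Eef1g, Eef2, Eif3k and Eif4ebp1, the last with an adjusted p of 0.0119, edgeR), 1 was lower and 2414 genes were called. Same-numbered libraries correlated at 0.113, 0.0306 and 0.00344 in their deviations from the group mean. The first was the highest of all control and itaconate pairs, whereas control replicate 3 correlated more with itaconate replicate 2 (0.0663). Deviations within a group of 3 offset each other, so these values cannot settle whether the numbers mark a pairing. The labels state no pairing, and the main test used none. Among the regulators outside the family, Eif2ak2, Eif2ak3, Dnajc3, Rps6 and Paip2b lost their calls with limma on log2(TPM + 1), at log2 changes of -0.38, -0.40, -0.28, 0.19 and -0.23, and all of these but Eif2ak2 with effective-length offsets (adjusted p 0.0563 to 0.264). The fitted sign of 32 members changed in at least 1 setting, none with a log2 change above 0.11 in size in the main fit. In the other settings the changed values could be larger, as in Eif4g2 at 0.15 with effective-length offsets (main fit -0.01). The cause of these differences was not tested.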
